A study of Mus musculus with 6 samples.

Results

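The cytoplasmic ribosomal protein genes of sorted mouse kidney epithelial cells are described here, in cells that kept or lost Terf1 (Trf1), a protein of the shelterin complex that protects telomeres. The genes were taken by symbol alone: every row whose symbol begins with Rpl or Rps and a digit, together with Rplp0, Rplp1, Rplp2 and Rpsa, without pseudogene rows, whose symbols contain -ps, and without the Rps6k kinases. This gave 89 of 16095 genes. Among them, 46 encode proteins of the large (60S) subunit and 31 proteins of the small (40S) subunit, and these 77 are called core genes below. A further 8 are paralogs or retrogene copies, 3 are other rows with matching symbols (Rpl32l, Rpl37rt and Rps23rg1), and Rps19bp1 encodes a binding partner and not a ribosomal protein.

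Both groups carried the fluorescent reporter allele written KFP+/t and a Cre+/t allele, KspCadherin-CreERT2, in which a kidney-specific cadherin promoter drives a tamoxifen-dependent recombinase. The control group was Trf1+/+ and the Terf1_flox group Trf1lox/lox, with 3 libraries each. Male and female mice aged 6 to 8 weeks at the start received intraperitoneal tamoxifen 3 times a week for 8 weeks, controls included, and epithelial cells were then sorted from dissociated kidney with an EpCAM antibody and the endogenous KFP signal. The labels do not say whether each library came from a separate mouse or which sex it came from, so p-values measure only the spread between these libraries.

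Cytoplasmic ribosomes hold most of their proteins in equal numbers, and the subunits are assembled in the nucleolus from these proteins and ribosomal RNA. Many ribosomal protein mRNAs begin with a pyrimidine tract, the terminal oligopyrimidine (TOP) motif, through which mTOR signalling and LARP1 control their translation. Several ribosomal proteins also act outside the ribosome, such as Rpl5 and Rpl11, which with the 5S RNA bind Mdm2 and so restrain the degradation of p53.

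Promoter sequences from RefSeq (GRCm38.p6) covered 67 of the 89 genes and 57 of the 77 core genes. A run of at least 8 pyrimidines (C or T) lay within 20 bases either side of the annotated start, 41 bases in all, in 29 of 57 core genes (50.9%), against 19.4% of the 10305 other tested genes with a sequence and 18.8% of all 27025 genes in the table. Purine runs of the same length, searched on the same strand and so equal to pyrimidine runs on the other strand, were found in 8.77% of core genes and 19.4% of other tested genes. The letters CTTCCG, searched on both strands of the 300-base promoter, were found in 70.2% of core genes, 33.9% of other tested genes and 18.8% of all genes. The first 5 letters of CTTCCG are pyrimidines, so it can overlap a pyrimidine run. The letters TATAA, also on both strands, were found in 28.1% of core genes, 16.9% of other tested genes and 28.0% of all genes. The windows below, 20 bases before the annotated start and 10 bases from it, are shown to set genes with a long tract at the start beside paralog pairs and beside genes that were lower in Terf1_flox; capitals mark the longest pyrimidine run in each window, 5′ to 3′.
Rps27, chr3:90213639-90213668, minus strand: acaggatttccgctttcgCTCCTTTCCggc
Rps27l, chr9:66946066-66946095, plus strand: cctctccaCTCCTCCCCgccgcctctatcc
Rpl22, chr4:152324416-152324445, plus strand: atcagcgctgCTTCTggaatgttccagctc
Rpl22l1, chr3:28805488-28805517, plus strand: cgtgcgtgcggcgcaagcccgTTCTCTTCC
Rpl34, chr3:130730328-130730357, minus strand: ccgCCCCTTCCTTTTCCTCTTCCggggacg
Rpl35, chr2:39005122-39005151, minus strand: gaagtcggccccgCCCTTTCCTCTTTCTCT
Rps6, chr4:86857358-86857387, minus strand: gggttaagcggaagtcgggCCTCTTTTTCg
Rplp2, chr7:141447631-141447660, plus strand: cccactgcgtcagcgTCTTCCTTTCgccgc
Rplp0, chr5:115559447-115559476, plus strand: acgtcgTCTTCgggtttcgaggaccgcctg
Rps3, chr7:99483700-99483729, minus strand: gaacaCTTgcaagggtcgccgcgctgcgcg
The tract was long in Rpl34 and Rpl35 (20 and 17 bases). The windows of Rplp0 and Rps3, both lower in Terf1_flox, held runs of 5 and 3, and that of Rpl22, which lay above 0, also 5. The genes were picked, and each is shown at its annotated start with the longest run. The windows are thus no measure of a relation between run and direction. Over the matched core genes, the median log2 fold change was 0.51 over the 29 genes with a run and 0.59 over the 28 without. It was 0.60 over 40 genes with CTTCCG and 0.39 over 17 without, and 0.64 over 16 with TATAA and 0.51 over 41 without. A match describes these letters only.

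The libraries held 13582140 to 17680986 reads in genes. The targeted gene checks the labels: Terf1 had 529.6, 486 and 664 normalized counts in control and 62.0, 24.6 and 25.3 in Terf1_flox, a log2 difference of -3.99 ± 0.61 (standard error). Its limma adjusted p was 0.0814, its DESeq2 adjusted p 5.42e-08, and its exact two-sided permutation p 0.1, the smallest that 3 against 3 allows. In limma none of 14822 genes passed the 0.05 threshold after adjustment (0% higher and 0% lower). Epcam, the marker used in the sort, had 4510.2, 5087 and 4416 normalized counts in control and 1831, 1434 and 2977 in Terf1_flox. Summed over 6 immune markers analysed here the level was 38.1 to 151 in control against 39.2 to 178 in Terf1_flox, and 1 fibroblast marker lay between 1.76 and 15.2 in all libraries. Over 9 kidney epithelium markers the sum was 242704 to 293395 in control against 184025 to 236363 in Terf1_flox. Of these 9, Umod had 125546, 95801 and 138096 normalized counts in control against 60497, 66079 and 64199.7 in Terf1_flox, while Slc12a1 was higher in every Terf1_flox library (33842, 41249 and 34662 against 54370.4, 50643 and 46946), and 4 of the 9 lay above 0. Summed over 5 erythroid markers the level was 441 to 833 in control against 151 to 610 in Terf1_flox, with all 5 below 0 and overlapping groups, and over 6 proximal tubule markers 242 to 874 against 460 to 1714. Mitochondrially encoded genes took 10.3 to 13.0% of control reads and 16.2 to 20.6% of Terf1_flox reads.

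Ribosomal protein genes took a larger share of reads in every Terf1_flox library than in any control library. Their share was 2.14, 2.23 and 1.74% in control against 2.69, 2.62 and 2.81% in Terf1_flox. The means were 2.04% ± 0.262 and 2.71% ± 0.0978 (SD, n = 3 each), a ratio of 1.33. Control replicate 3 was the lowest library, and the ratio was 1.24 without it. The small subunit genes took 0.818% ± 0.129 and 1.14% ± 0.0645, and the large subunit genes 1.14% ± 0.117 and 1.41% ± 0.0335 (SD, n = 3 each). The mitochondrially encoded share and the Epcam level given above moved with the groups, and their part in the difference was not tested. With mitochondrially encoded reads left out of the total, the shares were 2.32% ± 0.334 and 3.32% ± 0.211. Fewer cells of a type and less RNA per cell cannot be told apart in such bulk libraries.

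**Figure D1:**
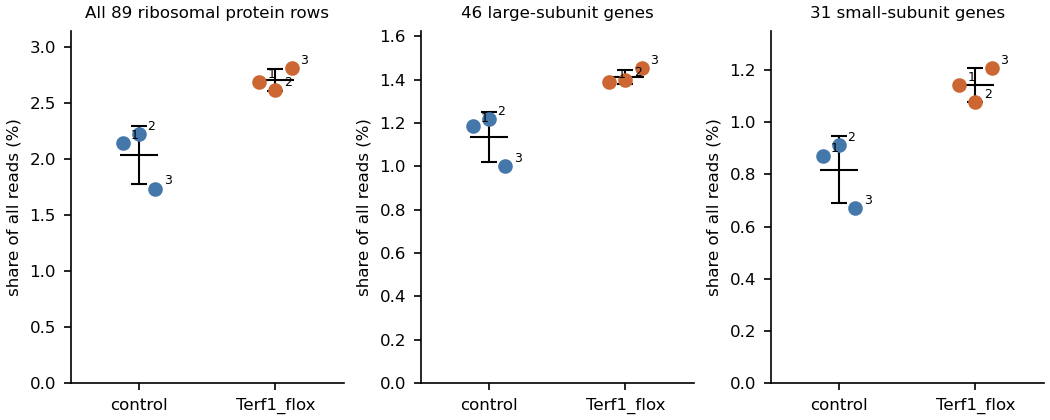
Share of all reads in genes (%, vertical axis) for all 89 rows, the 46 large subunit genes and the 31 small subunit genes, 1 numbered point per library, control beside Terf1_flox, with group mean and SD. For all ribosomal protein genes the lowest Terf1_flox library (2.62%) lies above the highest control library (2.23%).

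Of the 87 ribosomal protein genes with a mean of at least 10 normalized counts, 75 had a log2 fold change above 0, where 47.2% of all tested genes did. Their median log2 fold change was 0.59, against -0.08 over all 14822 genes. By coding length, the core genes above 0 were 9 of 9 under 300 nt and 26 of 27 from 300 to under 450 nt. Other protein-coding genes with a mean of at least 1000 lay above 0 in 88.2% and 73.6% of cases in these ranges. From 450 to under 600 nt it was 18 of 19 against 56.6%, and from 600 to under 900 nt 14 of 19 against 46.3%. From 900 to under 1500 nt it was 0 of 3 against 33.6%. No ribosomal protein gene passed the adjusted threshold in limma, and none did in edgeR's quasi-likelihood test on the recovered reads (0% of all genes in each direction). At an unadjusted limma p below 0.05, 44 were higher (5.7% of all genes) and 4 lower (8.43% of all genes). All 3 Terf1_flox libraries lay above all 3 control libraries in 47 genes (10.3% of all genes) and below them in 5 (10.8% of all genes), and the groups overlapped in 35. DESeq2 called 23 higher (2.21% of all genes) and 2 lower (3.0% of all genes) after adjustment at 0.05. These shares are over genes of all levels, and none was matched for level. The median standard error of the log2 difference was 0.23 over core genes and 0.80 over all tested genes. With the fit restricted to genes with a mean of at least 50, limma called 7 higher (0.372%), namely Rps27, Rps27l, Rpl22l1, Rpl34, Rpl39, Rps24 and Rps14, and 1 lower (0.855%), Rpl3. With libraries scaled to equal totals limma called only Rpl3, lower (0.297% of all genes were called lower and 0.00675% higher). Without Terf1_flox replicate 1 the 4 lower genes at an unadjusted p became 2. Without Terf1_flox replicate 3 the 5 genes lying wholly below control became 9. Leaving out a library cannot lower that count, and the share of all genes under it is not given here.

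**Figure D2:**
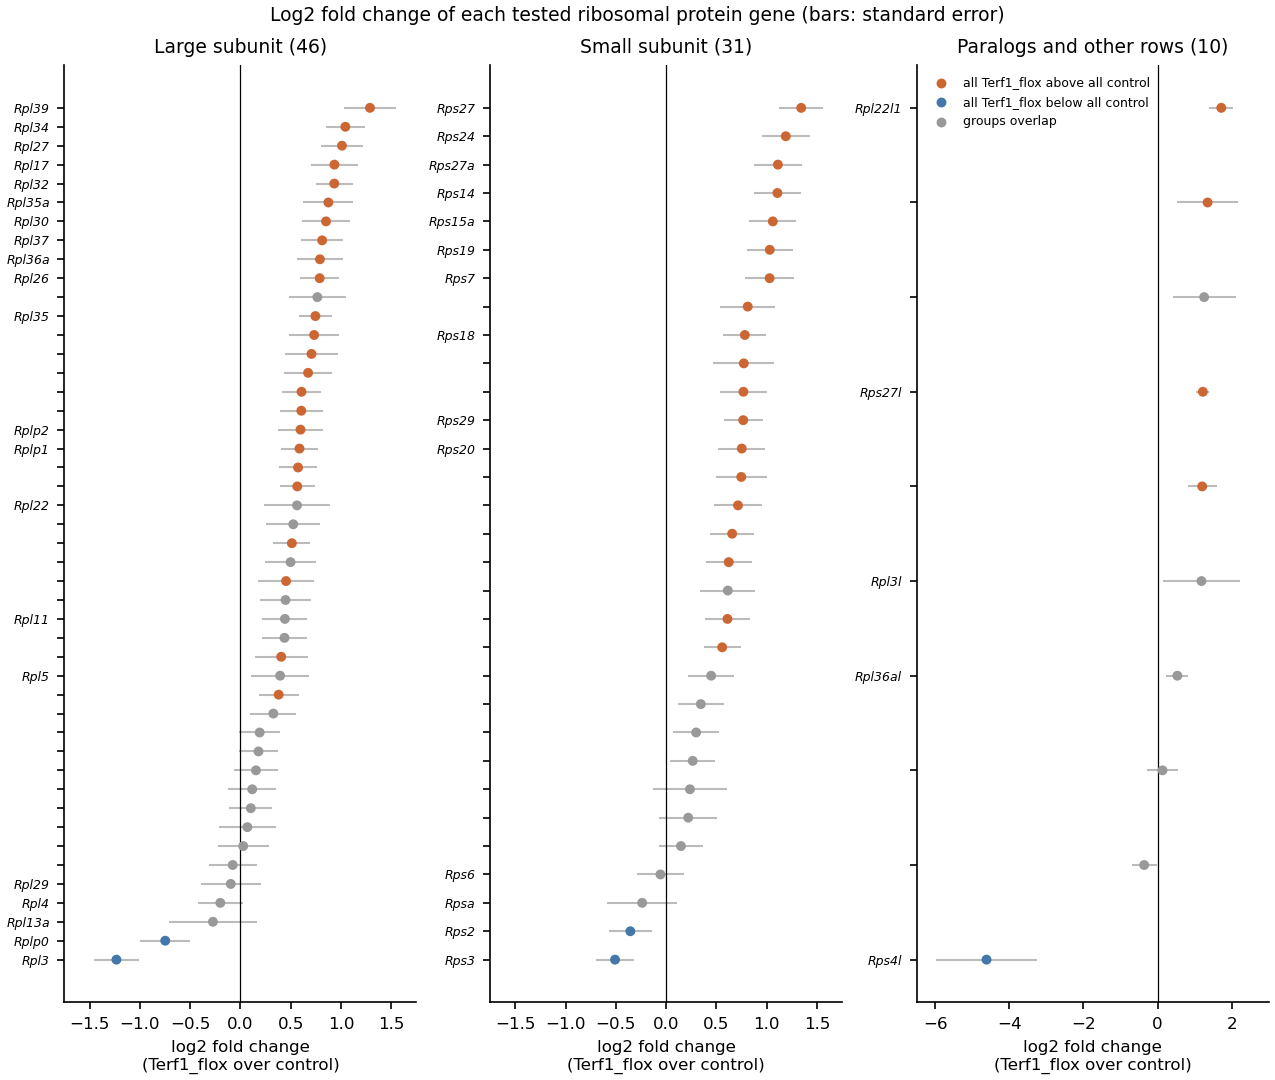
Log2 fold change (Terf1_flox over control, horizontal axis) with its limma standard error for the 87 tested genes, by class; colour marks whether the 3 libraries of each group overlap, and symbols are printed for some of the genes. In 47 genes all Terf1_flox libraries lie above all control libraries, and in 5 below; the right panel has a wider axis, since Rps4l lies at -4.62.

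Values set against each other below are the 3 control libraries, then the 3 Terf1_flox libraries, in normalized counts, with the log2 difference and its standard error in brackets. Large subunit genes were mostly higher: 40 of 46 lay above 0, with a median of 0.52, and DESeq2 called 11 higher and 1 lower (2.21% and 3.0% of all tested genes). In 24 of the 46 all Terf1_flox libraries lay above control (10.3% of all tested genes), with log2 differences from 0.38 (Rpl9) to 1.29 (Rpl39). Another 20 overlapped between groups, from -0.27 (Rpl13a) to 0.76 (Rpl7), and 2 lay wholly below control (10.8% of all tested genes). Rpl39, a small protein of the peptide exit tunnel, had 2403, 2192 and 1417 normalized counts in control and 5222, 4412 and 4720.0 in Terf1_flox. The groups did not overlap, and the log2 difference was 1.29 ± 0.26 (limma adjusted p 0.108, DESeq2 adjusted p 0.000527), or 0.80 after correction for transcript GC content and length. Its paralog Rpl39l was not analysed here. Rpl34 had 4182, 3519.9 and 3155 in control and 8067, 6600.0 and 7637 in Terf1_flox, a difference of 1.04 ± 0.20. Rpl27 gave 3473, 2759 and 2660.2 against 6833, 5571 and 5464 (1.01 ± 0.21). For Rpl32 the values were 8146, 6579 and 5719.9 against 11829, 12909.6 and 13969 (0.93 ± 0.19). Each of these 3 had every Terf1_flox library above every control library. Rpl35, which sits at the tunnel exit, had 7998, 6856 and 6995 against 13330.4, 11771 and 11506 (0.74 ± 0.16). Over the 8 exit tunnel genes, 7 lay above 0, with a median of 0.68, and DESeq2 called 4 higher. The exception was Rpl4, whose protein lines the tunnel, with 5548, 4631 and 7183 in control and 4309, 5419.8 and 5211 in Terf1_flox (-0.20 ± 0.22), and its groups overlapped.

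Rpl3, whose protein lies near the peptidyl transferase centre, stood at the other end. It had 2985, 2708 and 3347 normalized counts in control and 1223, 1289 and 1319.7 in Terf1_flox. Every Terf1_flox library was below every control library, with a log2 difference of -1.23 ± 0.23 (limma adjusted p 0.0926, DESeq2 adjusted p 0.000163). Its paralog Rpl3l, known from striated muscle, had 105, 15.3 and 23.7 in control and 75.1, 184 and 34.4 in Terf1_flox, and its groups overlapped. Rpl13a, known also from the GAIT complex, gave 291, 373 and 452 against 410.1, 222 and 305 (-0.27 ± 0.44). Rpl29 gave 1785, 1596 and 1709.8 against 1082, 1903 and 1937 (-0.10 ± 0.30). Neither separated the groups, and the sign for Rpl29 turned with the libraries scaled to equal upper quartiles (0.025).

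The stalk recruits elongation factors to the ribosome and is built from Rplp0, its scaffold, with Rplp1 and Rplp2 bound to it. Rplp0 had 8413, 6301 and 7663 normalized counts in control and 3385, 4212 and 6012 in Terf1_flox, lower without overlap (-0.75 ± 0.25). Rplp1 had 6459, 5954 and 4768 in control and 8822, 8614 and 8179 in Terf1_flox, higher without overlap (0.59 ± 0.18). Rplp2 had 2163, 2544 and 2016 against 3966, 3199 and 3029, also higher without overlap (0.60 ± 0.23). The scaffold and its partners thus lay on opposite sides of 0, although limma and DESeq2 called none of them. The ratio of Rplp1 to Rplp0 was 0.768, 0.945 and 0.622 in control against 2.61, 2.05 and 1.36 in Terf1_flox. For Rplp2 over Rplp0 it was 0.257, 0.404 and 0.263 in control against 1.17, 0.760 and 0.504 in Terf1_flox. Both ratios separated the groups. The GC and length correction gave smaller differences with the same signs, -0.45 for Rplp0, 0.39 for Rplp1 and 0.30 for Rplp2. That correction did not use coding length, which is 951 nt in Rplp0, 342 in Rplp1 and 345 in Rplp2. Other genes with a mean of at least 1000 had medians of -0.32 from 900 to under 1500 nt and 0.33 from 300 to under 450 nt. The part of coding length in these ratios was not tested. Rpl12, also listed with the stalk, lay at 0.07 ± 0.28 with overlapping groups. Rpl5 had 2691, 1879.6 and 2108 in control and 2009, 3490.4 and 3455 in Terf1_flox (0.39 ± 0.29), and Rpl11 had 3482, 4064 and 3025 against 4049, 5799.5 and 4570.2 (0.44 ± 0.22). For these partners of the 5S RNA the groups overlapped.

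Small subunit genes lay above 0 in 27 of 31 cases, with a median of 0.66, and DESeq2 called 10 higher and 0 lower (2.21% and 3.0% of all tested genes). Adjusted limma p-values called 0, and at an unadjusted p below 0.05 limma had 19 higher and 1 lower (5.7% and 8.43% of all tested genes). In 19 all Terf1_flox libraries lay above control (10.3% of all tested genes), up to 1.34 (Rps27), and in 2 wholly below (10.8% of all tested genes). The other 10 overlapped, from -0.24 (Rpsa) to 0.61 (Rps4x). Rps27 had 6659, 5131 and 4108 normalized counts in control and 13779, 11235 and 14793 in Terf1_flox. The groups did not overlap, and the log2 difference was 1.34 ± 0.22 (limma adjusted p 0.0814, DESeq2 adjusted p 2.43e-05). Corrected for transcript GC content and length, it was 0.73. Rps24, mutated in some cases of Diamond-Blackfan anaemia, had 3094, 2859 and 1990.0 in control and 6754, 5244 and 5897 in Terf1_flox (1.19 ± 0.24). Rps19, the gene most often mutated in that anaemia, had 5599, 3868 and 3458 against 7581, 8760.3 and 9605 (1.03 ± 0.23). Rps14, whose loss of 1 copy underlies the anaemia of the 5q- syndrome, had 14811, 9201 and 8206 against 24911, 19851 and 22562 (1.11 ± 0.23). In Rps24, Rps19 and Rps14 every Terf1_flox library was above every control library. Rps15a gave 3318, 3889.7 and 2362 against 7177, 6361 and 6062 (1.06 ± 0.23). Rps27a, made as a fusion with ubiquitin, gave 3142, 3433 and 2086 against 5865, 6176 and 6260.3 (1.11 ± 0.23, corrected 0.73).

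Lower values in the small subunit were found for Rps3 and Rps2, whose proteins line the mRNA entry channel. Rps3 had 5944, 6682 and 6859 in control and 3980.1, 4634 and 5129.9 in Terf1_flox (-0.51 ± 0.19). Rps2 had 3045, 3828 and 3248 against 2360.4, 2947 and 2594 (-0.36 ± 0.22). In both the groups did not overlap, neither was called by limma or DESeq2, and the corrected differences were -0.24 for Rps3 and -0.14 for Rps2. Rpsa, also known as the laminin receptor, had 1316, 1906 and 873 against 1065, 939 and 1333 (-0.24 ± 0.35), with overlapping groups and a sign that turned after correction for transcript GC content and length (0.28). Rps6, the substrate of the S6 kinases, had 3385, 3671 and 3389 against 2609.5, 3349 and 4282 (-0.06 ± 0.24), and its sign turned with equal upper quartiles (0.064).

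Apart from the genes above, 10 more core genes were called higher by DESeq2 and not by limma. DESeq2 called 2.21% of all tested genes higher. All but Rpl36a were named after their values were seen. These 10 had limma log2 differences from 0.75 (Rps20) to 1.03 (Rps7). Rps7, which also binds Mdm2, had 4449, 2872 and 2684 normalized counts in control and 5834, 6559 and 7614 in Terf1_flox (1.03 ± 0.25, DESeq2 adjusted p 0.00768). Rps29, the small subunit gene with the highest control level per kb, had 7403, 8306 and 5699 against 13446, 10816 and 11858 (0.77 ± 0.19). Rps20 gave 2204, 2151 and 1813 against 3743, 2826 and 3880.0 (0.75 ± 0.23). In each of these 3 every Terf1_flox library was above every control library, as in 10.3% of all tested genes. Rps29 was 0.33 and Rps20 0.34 after correction for GC content and length, whereas Rps7 was 0.93. The others were Rpl17 (0.93 ± 0.24), Rpl26 (0.79 ± 0.20), Rpl37 (0.81 ± 0.21), Rpl30 (0.85 ± 0.24), Rps18 (0.78 ± 0.21), Rpl36a (0.79 ± 0.23) and Rpl35a (0.87 ± 0.25). Rpl26, known to bind the p53 mRNA, had 5086, 4384 and 3740.1 against 7446, 8418 and 6849. Rpl36a had 2156, 2232 and 1616 against 3553, 3403 and 3327, and its corrected difference was 0.07. That of Rpl26 was 0.47, of Rpl37 0.48 and of Rpl35a 0.30.

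Paralogs and retrogene copies numbered 8, of which 7 lay above 0, with a median of 1.19. Rps27l, a p53 target that differs from Rps27 in a few residues, had 6952, 6857 and 5394 normalized counts in control and 16016, 13977 and 14583 in Terf1_flox. Its groups did not overlap, with a log2 difference of 1.22 ± 0.17 (limma adjusted p 0.0805, DESeq2 adjusted p 3.38e-06). Corrected for transcript GC content and length, that difference was 0.42. The ratio of Rps27l to Rps27 was 1.04, 1.34 and 1.31 in control against 1.16, 1.24 and 0.986 in Terf1_flox, and so overlapped. Rpl22l1, whose mRNA Rpl22 is known to repress, had 1204, 1122 and 646 in control and 3413, 2487 and 3676 in Terf1_flox. Every Terf1_flox library was higher, by 1.72 ± 0.32 (DESeq2 adjusted p 4.61e-05, limma adjusted p 0.0926), and the corrected difference was 0.74. Rpl22 itself had 1286, 1564 and 796 against 2029, 1380.3 and 1842 (0.56 ± 0.33), with overlapping groups. The Rpl22l1 to Rpl22 ratio, from uncorrected counts, was 0.936, 0.717 and 0.812 in control against 1.68, 1.80 and 2.0 in Terf1_flox, without overlap. After correction for transcript GC content and length the difference was 0.90 for Rpl22 and 0.74 for Rpl22l1. The larger rise of Rpl22l1 was thus not kept under that correction. Rpl36al over Rpl36a was 0.716, 0.745 and 0.638 against 0.448, 0.698 and 0.638, with overlap. A further 2 copies lay higher without overlap. Rps27rt had 23.8, 33.4 and 20.5 against 65.3, 63.6 and 69.8 (1.35 ± 0.82), and Rps3a3 had 855, 932 and 409 against 1261, 1974 and 1605 (1.20 ± 0.39). In all, 4 of the 8 lay wholly above control and 1 wholly below (10.3% and 10.8% of all tested genes). The groups overlapped for Rpl7l1 (0.13 ± 0.42), Rpl36al (0.53 ± 0.30), Rpl37rt (1.26 ± 0.85) and Rps19bp1 (-0.36 ± 0.33). Near-identical copies share reads, so how reads were split between such pairs is uncertain.

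**Figure D3:**
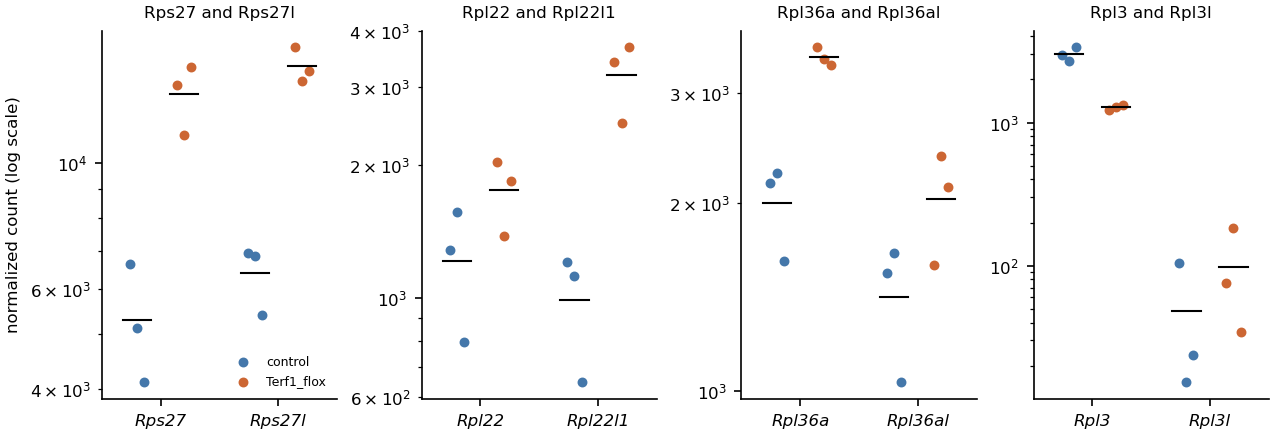
Normalized counts (log axis) of paralog pairs, 1 point per library, control and Terf1_flox in separate colours. Rps27 and Rps27l are both higher in Terf1_flox without overlap, while of the pair Rpl22 and Rpl22l1 only Rpl22l1 separates the groups.

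Rps4l, singled out after its values were seen, had 105, 516 and 397 normalized counts in control and 4.35, 2.05 and 89.1 in Terf1_flox (-4.62 ± 1.35, limma adjusted p 0.198). In DESeq2 its log2 difference was -3.39 (adjusted p 0.0458). Below the mean of 10 lay Rpl32l, with 8.80, 0.953 and 0.789 in control and 7.61, 1.03 and 16.2 in Terf1_flox, and Rps23rg1, with 4.40, 5.72 and 11.1 against 9.79, 6.16 and 4.05. Both overlapped between groups. The 33 pseudogene rows left out summed to 0.277% of the signal of the 89 genes. Of the 22 pseudogene rows tested 19 lay above 0, with a median of 0.83, and reads of these copies and of their parent genes may not be told apart.

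Log2 fold changes were higher in core genes with a short coding part and lower, down to below 0, in those with a long one. Over the 77 core genes, log2 fold change and log2 coding length (GENCODE mouse release 21, principal transcript) had a Pearson correlation of -0.60 and a Spearman correlation of -0.65. It was -0.59 and -0.66 over the 46 large subunit genes and -0.64 and -0.62 over the 31 small subunit genes. These genes share the same 6 libraries and are not independent. In 9 core genes with a coding part under 300 nt the median log2 fold change was 0.77, in 27 from 300 to under 450 nt 0.74, in 19 from 450 to under 600 nt 0.51 and in 19 from 600 to under 900 nt 0.22. The 3 longest, Rplp0, Rpl3 and Rpl4, had a median of -0.75. Other genes with a mean of at least 1000 followed the same order, with medians of 0.59, 0.33, 0.09, -0.08 and -0.32 over 136, 239, 226, 337 and 417 genes, and a Pearson correlation of -0.42 over 1355 genes. The correction for GC content and length used the length of the whole transcript, and none was made for coding length. After it the core Pearson correlation was -0.35 with coding length and -0.0006 with transcript length, which was -0.33 before. The median over the tested ribosomal protein genes was then 0.34.

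**Figure D4:**
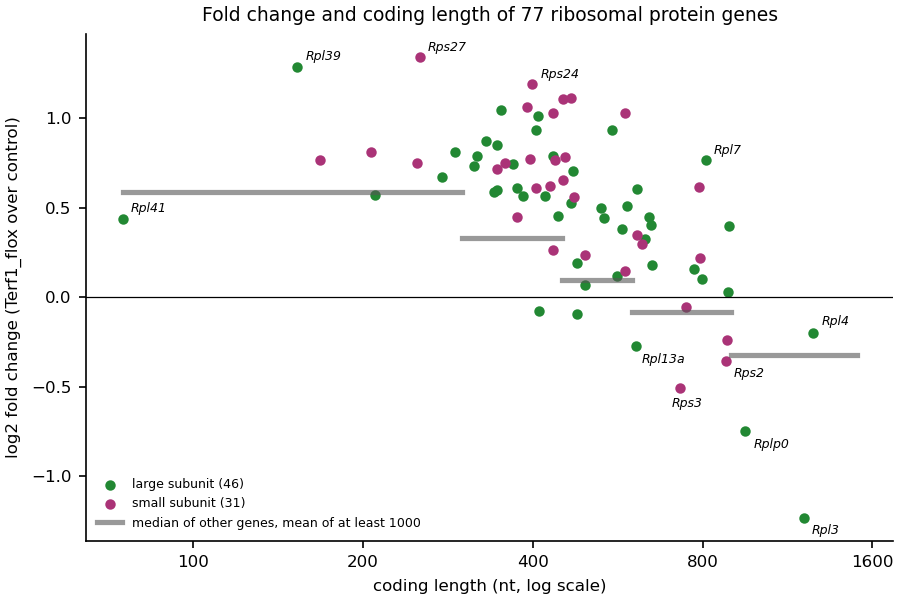
Log2 fold change (Terf1_flox over control, vertical axis) against coding length (nt, log axis) for the 77 core genes, with the medians of other genes with a mean of at least 1000. Medians go from 0.77 in the shortest core genes to -0.75 in the 3 longest.

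The relation to coding length differed in size between libraries of the same group. Each library's deviation from the 6-library mean had a Pearson correlation with log2 coding length, over the core genes, of 0.63, 0.14 and 0.66 in control and -0.70, -0.26 and -0.37 in Terf1_flox. The 36 core genes under 450 nt had median deviations of -0.27, -0.14 and -0.68 in control and 0.49, 0.32 and 0.37 in Terf1_flox. The 22 of 600 nt or more had 0.05, -0.03 and -0.20 in control and -0.19, 0.20 and 0.18 in Terf1_flox. Short genes thus separated the groups in the median, and long genes did not. The deviations are from a mean over the same 6 libraries, so their signs by group follow in part from the fold changes above. They are no separate evidence for the relation to coding length. Control replicate 3 was the lowest control in 55 of the 77 core genes. Without it the median over the tested ribosomal protein genes was 0.50, against 0.59 with all libraries.

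**Figure D5:**
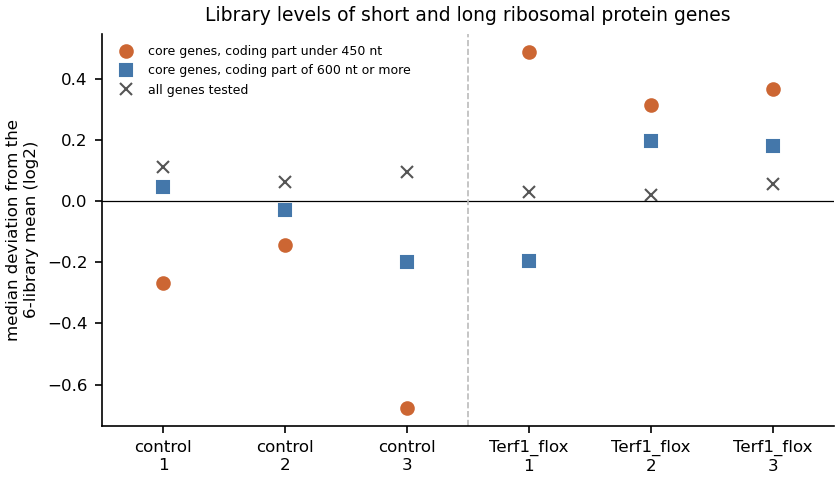
Median deviation from the 6-library mean (log2, vertical axis) of short (under 450 nt) and long (600 nt or more) core genes in each library, with all tested genes as crosses. Short genes reach at most -0.14 in any control library and at least 0.32 in any Terf1_flox library; long genes overlap between groups.

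Levels differed widely among genes whose proteins are mostly present in equal numbers on the ribosome. Per kb of transcript, the control level ranged from 355 (Rpl13a) through a median of 3760 to 18297 (Rps29), and the Terf1_flox level from 298 through 4874 to 38460 (Rps27). The median standard error of the log2 difference was 0.23 over core genes and 0.80 over all tested genes.

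Other genes of the translation machinery lay on both sides of 0. Of 7 genes listed here as elongation factors 2 lay above 0 and 5 below, with a median of -0.35, and DESeq2 called 2 lower (3.0% of all tested genes). The 2 above 0 were Eef1b2 (0.33 ± 0.32) and Eef1e1 (1.20 ± 0.69), both with overlapping groups. Eef1e1 was listed by its name, but its protein belongs to the tRNA synthetase complex. Eif5a, which helps the ribosome through proline stretches, had 4372, 3935 and 5255 normalized counts in control and 1687, 1109 and 2216 in Terf1_flox (-1.48 ± 0.29, DESeq2 adjusted p 0.000394, limma adjusted p 0.108). Eef2, the translocation factor, had 1733, 3747 and 2879 against 1396, 1021 and 1108 (-1.19 ± 0.33). Eef1g, a subunit of the eEF1 exchange complex, had 1811, 2154 and 1755 against 806, 1290.0 and 1162 (-0.83 ± 0.28). In these 3 genes every Terf1_flox library was below every control library (10.8% of all tested genes). Corrected for GC content and length, Eif5a was -1.17, Eef2 -0.72 and Eef1g -0.36. Among 11 TOP mRNA and mTOR regulators 5 lay above 0 and 6 below, and the groups overlapped in all 11, as they did in 11696 of 14822 tested genes. The log2 difference was 0.59 for Pabpc1, the poly(A) binding protein, -0.70 for Eif4e, the cap-binding protein, and 0.65 for Larp4. Of 11 genes listed here as ribosomal protein chaperones and assembly factors 2 lay above 0 and 9 below. Their median was -0.34, and DESeq2 and limma called none. Among them Npm1, nucleophosmin, had a log2 difference of 0.50 and Bccip -0.50. The list also held Aar2 (-1.55), whose protein is known from spliceosome assembly and not as a ribosomal protein chaperone. Fau, whose product is a ribosomal protein fused to a ubiquitin-like protein, lay above 0 without overlap (0.24 ± 0.19). Of 6 ribosome-associated factors 4 lay above 0, with 0.33 for Naca and 0.26 for Tpt1. Nacad lay at -2.63 ± 1.42 (limma adjusted p 0.448), but its mean of 11.2 was close to the filter of 10. It had 10.6, 13.3 and 32.4 in control and 1.09, 0 and 10.1 in Terf1_flox.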

How the data were processed

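RNA-seq of 6 libraries was analysed. The deposited table holds normalized counts per gene, a signal made by the authors; the submitters' processing notes name DESeq2 and GRCm39, and for the aligner, counter and annotation, the sources used here give no name. Low values are whole multiples of 1 step per library, so whole reads were recovered for 100% of values (tolerance 0.01).

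log2(normalized count + 1) was fitted with limma 3.58.1 (trend, R 4.3.3) on 14822 genes whose mean reached 10, with two-sided p-values adjusted by Benjamini-Hochberg over all of them and called below 0.05. Fold changes are on this log2(normalized count + 1) scale and, for genes with low counts in some libraries, can differ from those of DESeq2. edgeR 4.0.16 (quasi-likelihood, 0 genes called) and DESeq2 1.42.0 (328 genes higher, 444 lower) were run on the recovered reads as alternatives, and scripts were tested on simulated data. Coding length (stop codon left out), transcript length and GC content came from GENCODE mouse release 21 (88 of the 89 genes matched). That build differs from the authors', so no coordinate was joined. Spline correction for GC content and transcript length used 5 degrees of freedom on 14489 genes. Promoters came from RefSeq (GRCm38.p6).

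Members, gene lists and tests were chosen with earlier results of these data known. Named were paralog pairs, stalk genes, Rpl5, Rpl11, Rpsa, Rps6, Rps14, Rps19 and Rps27a, the 5 core genes per subunit and direction with the smallest limma p, and up to 3 per comparison list. Other settings tried were the pseudocount, filter, scaling, weights, a replicate block, the Xist level as a covariate and leaving out each library. Some genes are not reported here.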

Additional observations from a re-analysis of the deposited data

How the results depend on the processing

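Of 899 values of the 45 named genes under other settings, 862 kept their direction and side of the threshold, 30 came past it in the same direction, and 7 in 4 genes turned. Rpsa turned to 0.038 without control replicate 2 and 0.28 after GC and length correction, Rps6 to 0.064 with equal upper quartiles and 0.12 without Terf1_flox replicate 1, Rpl29 to 0.025 and 0.18 under those same settings, and Larp4 to -0.0077 after the correction; with 1 library left out, Rpsa lay between -0.52 and 0.038, Rps6 between -0.23 and 0.12 and Rpl29 between -0.24 and 0.18. Ribosomal protein genes called numbered 0 in limma, 8 with a mean of at least 50 (7 higher, 1 lower), 1 with equal totals (1 lower) and 25 in DESeq2 (23 higher, 2 lower). At an unadjusted p below 0.05 the higher count went from 44 to 26 with equal totals and 24 after correction, and the lower count from 4 to 2 after correction. Leaving out 1 library gave 2 to 4 lower at that p. It gave 5 to 9 lying wholly below control, a count that leaving out a library cannot lower. With equal upper quartiles and all libraries that count of 5 became 3. The median of 0.59 was 0.41 with equal totals and 0.34 after correction, and 0.50 to 0.63 with 1 library left out. Equal totals moved the median of all genes from -0.08 to -0.24, and the ribosomal protein median minus it was 0.66 in both. Same-numbered libraries did not deviate together (correlations of -0.05, 0.00 and -0.01), so numbers were not taken as pairs; with a replicate block 0 genes were called, 41 were higher and 4 lower at an unadjusted p below 0.05, and the median was 0.59. The cause of these shifts was not tested. With 3 libraries a group, the spread between libraries limits the precision.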
